A study of Mus musculus with 20 samples.

Results

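The endothelial identity genes are 35 genes whose products mark the cells that line blood and lymph vessels. They were taken from the deposited table by their gene symbols, and all 35 carried values among the 18012 genes with values. Endothelial cells seal against each other with junction proteins such as VE-cadherin, read growth factors of the VEGF and angiopoietin families through receptor kinases, and are held in their identity by transcription factors of the ETS and SOX families. In the lung they form a dense capillary bed that faces the airspaces, carries angiotensin-converting enzyme on its surface and moves gas, water and lipids, while a separate network of lymphatic vessels drains the tissue. Not every gene of the list is restricted to these cells: endoglin is also made by activated fibroblasts and macrophages, Ace and Lyve1 by macrophages, Vwf and Selp by megakaryocytes and platelets, and Ednrb and Aqp1 by other cells of the lung.

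Bulk RNA sequencing was done on lung cells of male C57BL/6 mice without disease or chemical treatment, freed with collagenase, in 5 groups of 4 libraries. The culture groups are named by the first and the second substrate. In 2D-3D the cells spent 4 days on flat culture plates (2D) and then 2 days inside a collagen hydrogel (3D). In 3D-2D they spent 4 days in gel and then 2 days on plates, in 3D-3D both periods in gel, and in 2D-2D both periods on plates. Sort_Fib holds uncultured cells that passed magnetic depletion of cells carrying CD45, EpCam or CD31, and CD31 is the product of Pecam1, a gene of this list. The cultures were begun from whole digests, from which no endothelial cells had been removed. The ages of the mice are not stated, nor is it stated whether the 4 libraries of a group came from separate animals, so that the p-values speak of the variation among libraries alone, and this may be technical.

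Depth was 19.67 to 20.33 M counts in a cultured library and 11.66 to 13.95 M in a Sort_Fib library. Replicate 3 of 3D-3D stood apart from its group, its chi-square against each other 3D-3D library being at least 32.62 for each degree of freedom, where all other pairs of replicates stayed at or below 25.58. Levels are given as CPM, the count of a gene relative to the depth of its library, after TMM scaling, and changes as log2 fold changes ± SE with 4 libraries in each group. A gene is called higher or lower where edgeR's quasi-likelihood test gave a Benjamini-Hochberg adjusted p below 0.05 over all genes tested. The depletion did not leave Sort_Fib free of the RNAs of the cells it targets: Pecam1 stood at 370 to 407 CPM there, leukocyte markers summed to 1150 to 1260 CPM and epithelial markers to 2000 to 2360 CPM. In RNA of whole cultures, fewer cells of a type and less RNA per cell cannot be told apart.

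The share of these RNAs was highest in the uncultured cells. Together the 35 genes took 0.0471 ± 0.00302% of counts in 2D-3D, 0.0307 ± 0.00195% in 3D-2D, 0.0614 ± 0.00679% in 3D-3D, 0.0262 ± 0.00163% in 2D-2D and 0.746 ± 0.0165% in Sort_Fib (SD, n = 4 each). In the cultures a few genes also made by other cells carried much of this. Eng averaged 178 CPM in 2D-2D and 161 in 3D-2D, of sums of 300 and 333 CPM. In 2D-3D Ace, Eng and Ednrb averaged 161, 88.4 and 72.6 CPM of a sum of 446. The 9 junction and surface genes summed to 12.4 CPM in 2D-2D and 91.9 in 3D-3D. In 34 of the 35 genes the mean level was highest in Sort_Fib, and the exception was Selp. Among the cultures, 24 genes had their highest mean in 3D-3D, 4 in 2D-3D, 2 in 3D-2D and 5 in 2D-2D, and 22 had their lowest mean in 2D-2D. Such ranks were not counted over all genes, so they describe the list alone. Those of Ccl21a (2 counts in 3D-3D) and Mmrn1 (9 counts in 2D-2D) rest on few counts. The list was not one block: most genes had their highest culture mean in 3D-3D, while a smaller set with Eng, Flt4 and Ptprb was higher on plates.

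**Figure D1:**
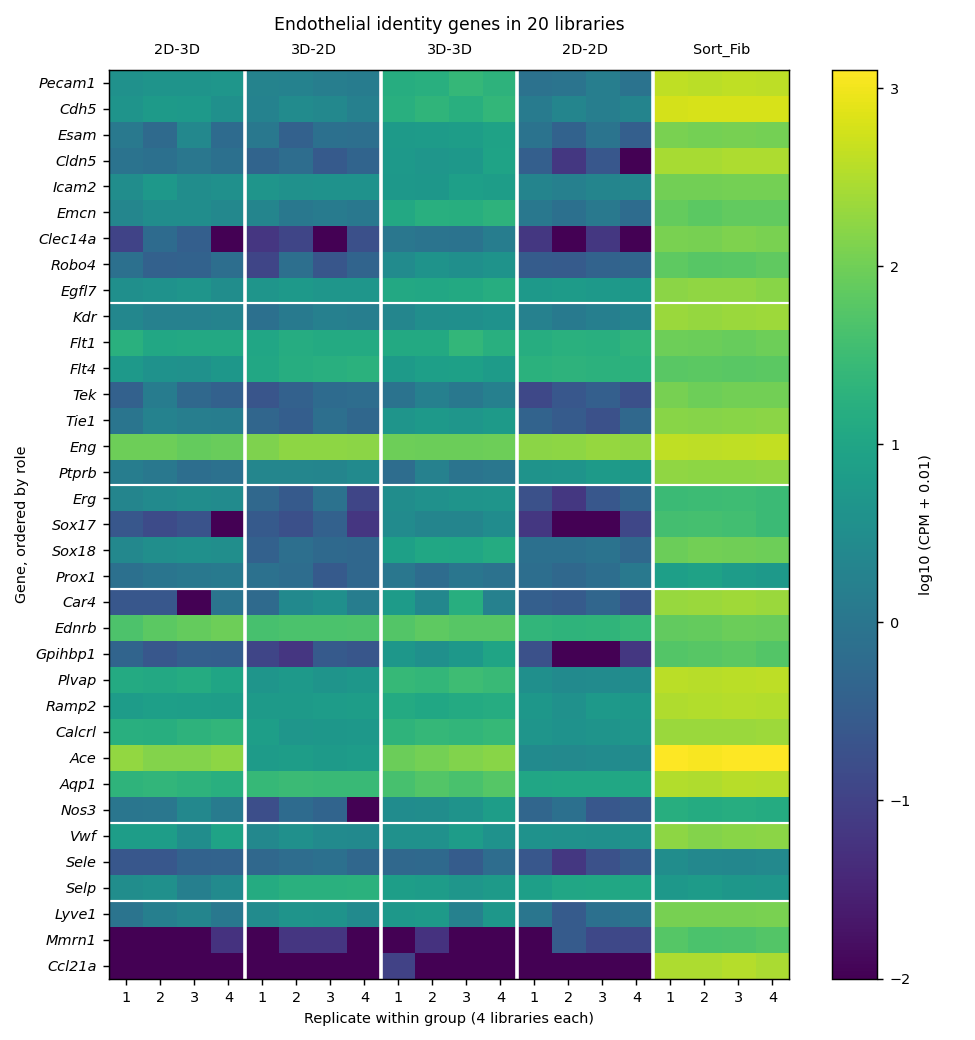
Level of each of the 35 genes (rows, grouped by role with white lines) in each of the 20 libraries (columns, by group and replicate), as log10 of CPM plus 0.01. By group mean Sort_Fib is brightest in all rows but Selp and 3D-3D is brightest among the cultures in 24 rows, while single libraries can differ (Ednrb in replicate 4 of 2D-3D at 96.8 CPM), and Ccl21a had counts in 1 of the 16 cultured libraries.

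All 35 genes passed the filter on low counts in the fit of 20 libraries, where a high level in Sort_Fib alone is enough to pass. A gene that passed only through that group had to differ from it, so the counts that follow describe the list and are given beside the share over all genes. In 2D-3D 34 of 35 were called lower than in Sort_Fib and none higher, where 78.1% of all genes were called (39.9% lower, 38.2% higher), and Ednrb was not called. In 3D-2D 34 were lower and Selp was higher (83.9% of all genes called, 45.8% lower and 38.1% higher). In 3D-3D 34 were lower and Selp was not called (77.8% of all genes called, 39.3% lower and 38.5% higher). In 2D-2D 34 were lower and Selp was higher (84.6% of all genes called, 46.1% lower and 38.5% higher). The median change over the list was -5.49 in 2D-3D, -6.23 in 3D-2D, -3.82 in 3D-3D and -7.01 in 2D-2D, each relative to Sort_Fib, beside medians over all genes tested of -0.02, -0.15, -0.00 and -0.17 in the same order. These 4 comparisons share the Sort_Fib libraries.

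**Figure D2:**
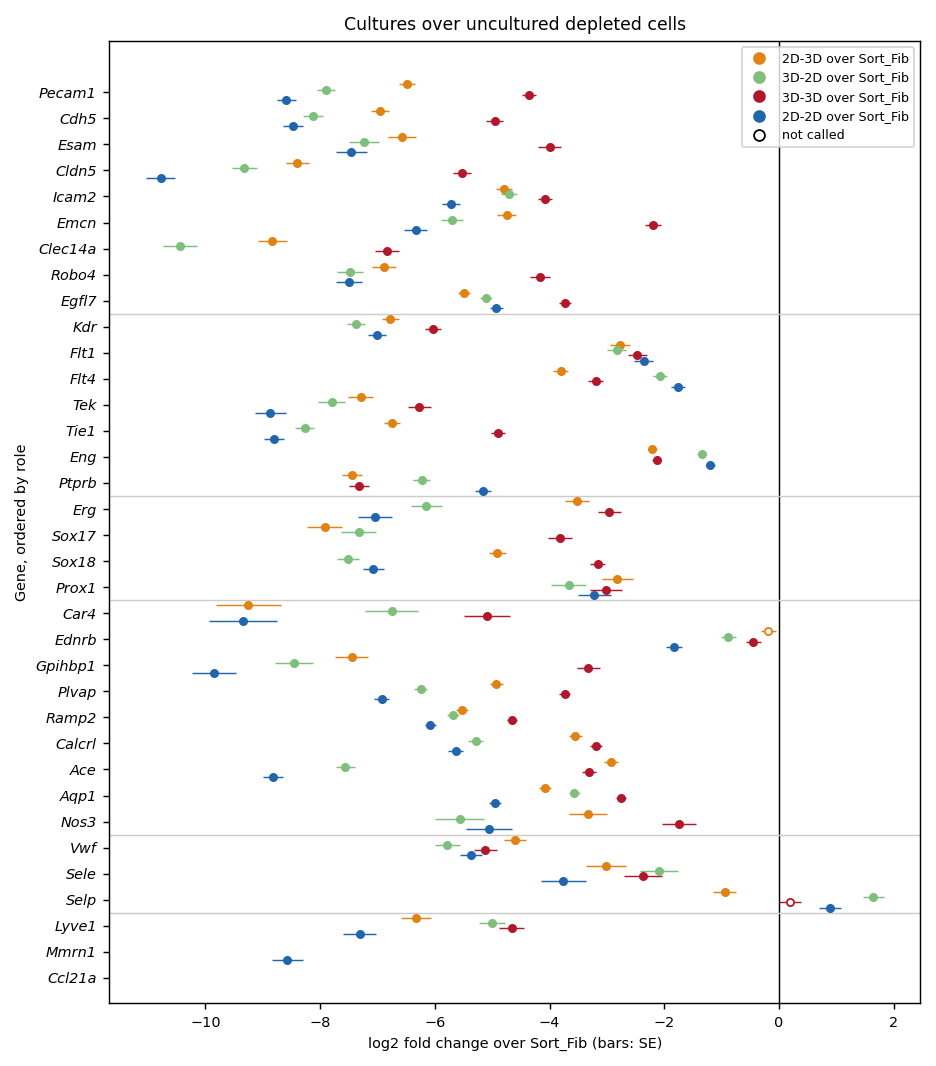
log2 fold change of each gene in 2D-3D, 3D-2D, 3D-3D and 2D-2D over Sort_Fib, with bars of 1 SE and open points where the gene was not called. Pecam1 and Cdh5 lie at -8.59 and -8.47 in 2D-2D and at -4.36 and -4.96 in 3D-3D, and Selp lies right of 0 in 3D-2D and 2D-2D; no fitted point is drawn where a group held 3 counts or fewer.

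Among the cultures, 33 of the genes passed the filter, and Mmrn1 and Ccl21a did not. In 3D-3D 26 of 33 were higher and 4 lower than in 2D-2D, where 73.5% of all genes were called (38.6% higher, 34.9% lower). The list's median was 2.64, beside 0.05 over all genes tested. Cultures moved into gel differed from 2D-2D in the same direction in part. In 2D-3D 20 were higher and 5 lower than in 2D-2D (71.2% of all genes called, 36.5% higher and 34.7% lower, median 0.98 beside 0.04). Cultures moved out of gel had lower levels of most of these RNAs than cultures kept in gel. In 3D-2D 25 were lower and 4 higher than in 3D-3D (70.5% of all genes called, 37.7% lower and 32.8% higher, median -1.67 beside -0.07). These comparisons share groups, and the 2D-2D and 3D-3D libraries serve in several of them. Without replicate 3 of 3D-3D, 26 genes were higher and 5 lower in 3D-3D than in 2D-2D, and relative to 3D-3D 4 were higher and 23 lower in 3D-2D and 2 higher and 21 lower in 2D-3D.

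Groups that ended on the same substrate differed by their first one. In 2D-3D 22 of 33 genes were lower and 1 higher than in 3D-3D, where 27.7% of all genes were called (15% lower, 12.7% higher), with a median of -1.18 beside 0.01 over all genes tested. In 3D-2D 10 were higher and 1 lower than in 2D-2D, where 20.4% of all genes were called (9.74% higher, 10.6% lower), with a median of 0.62 beside -0.01. Those 10 were Icam2, Car4, Ednrb, Plvap, Ramp2, Ace, Aqp1, Sele, Selp and Lyve1, and the lower one was Ptprb. Scaling by library size alone moved the median of all genes by 0.32 between 3D-3D and 2D-2D, with 7289 genes higher and 2996 lower in place of 5294 and 4784; the list then had 26 genes higher and 3 lower. The same scaling moved it by 0.28 between 2D-3D and 2D-2D and by -0.23 between 3D-2D and 3D-3D. Between 2D-3D and 2D-2D it gave 6708 and 3224 genes in place of 5005 and 4758, between 3D-2D and 3D-3D 3079 and 6774 in place of 4494 and 5168, and between 3D-2D and 2D-2D 1887 and 865 in place of 1335 and 1458. The genes of the list called in these 3 comparisons were then 21 higher and 4 lower, 4 higher and 27 lower, and 11 higher and 1 lower.

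**Figure D3:**
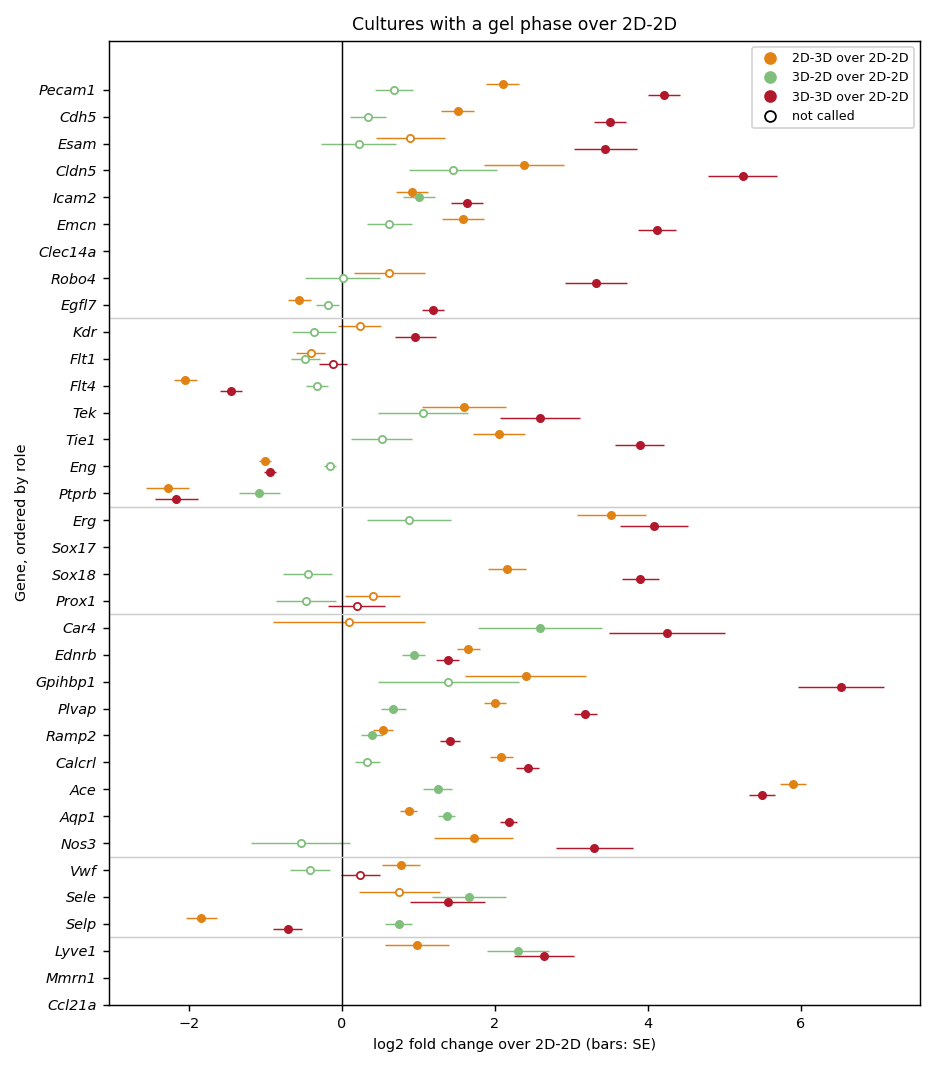
log2 fold change of each gene in 2D-3D, 3D-2D and 3D-3D over 2D-2D, with bars of 1 SE and open points where the gene was not called. Points of 3D-3D lie furthest right for most genes (Pecam1 at 4.21, Emcn at 4.12), Ace lies at 5.89 in 2D-3D and 5.49 in 3D-3D, and Flt4, Eng and Ptprb lie left of 0 in all 3 groups; genes with 3 counts or fewer in a group have no point.

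The members include Erg, an ETS factor, and Sox17 and Sox18, SOX factors that act in endothelial genes, so the windows before transcription starts were searched for short forms of the sites these families bind. The reference table of promoters (RefSeq, GRCm38.p6) held 28 windows for 22 of the 35 genes, and the 250 bases before each start were read. The letters AGGAAG or their reverse complement CTTCCT, an ETS form, stood in 14 of the 28 windows (50%) and in 29.5% of all 32851 windows of the same length. The letters AACAAT or ATTGTT, a SOX form, stood in 5 (17.9%) and in 9.42% of all windows, and the 2 forms do not overlap each other. A match is a description of the letters and shows no binding. The windows below are printed 5′ to 3′ on the strand of the gene, with matches in capitals, for 3 genes that were highest among the cultures in 3D-3D (Emcn, Robo4 and Tie1), for Ace, which was high in both groups that ended in gel, and for Eng, which was higher on plates; they were chosen after the levels were known. They lie at chr3:137340828-137341077 (plus strand) for Emcn, chr9:37401722-37401971 (plus) for Robo4, chr4:118489850-118490099 (minus) for Tie1, chr11:105967698-105967947 (plus) for Ace and chr2:32646345-32646594 (plus) for Eng.
Emcn: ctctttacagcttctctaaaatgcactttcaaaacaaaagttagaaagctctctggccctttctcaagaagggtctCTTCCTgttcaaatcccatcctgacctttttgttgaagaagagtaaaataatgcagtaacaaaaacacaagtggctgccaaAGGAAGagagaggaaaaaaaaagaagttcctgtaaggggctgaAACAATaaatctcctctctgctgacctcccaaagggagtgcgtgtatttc
Robo4: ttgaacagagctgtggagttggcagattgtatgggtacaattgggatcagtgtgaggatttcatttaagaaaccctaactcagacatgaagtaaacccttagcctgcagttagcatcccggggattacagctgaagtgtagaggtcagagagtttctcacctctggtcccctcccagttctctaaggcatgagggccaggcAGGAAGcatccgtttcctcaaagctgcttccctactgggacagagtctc
Tie1: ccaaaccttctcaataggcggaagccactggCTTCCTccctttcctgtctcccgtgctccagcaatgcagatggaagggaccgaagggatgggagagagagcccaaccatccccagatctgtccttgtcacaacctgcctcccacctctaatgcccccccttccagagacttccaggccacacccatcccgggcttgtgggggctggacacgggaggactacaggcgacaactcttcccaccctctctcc
Ace: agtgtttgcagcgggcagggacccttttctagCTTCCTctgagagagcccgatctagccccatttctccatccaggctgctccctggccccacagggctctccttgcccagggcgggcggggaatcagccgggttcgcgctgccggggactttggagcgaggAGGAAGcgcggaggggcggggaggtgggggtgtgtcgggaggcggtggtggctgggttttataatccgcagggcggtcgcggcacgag
Eng: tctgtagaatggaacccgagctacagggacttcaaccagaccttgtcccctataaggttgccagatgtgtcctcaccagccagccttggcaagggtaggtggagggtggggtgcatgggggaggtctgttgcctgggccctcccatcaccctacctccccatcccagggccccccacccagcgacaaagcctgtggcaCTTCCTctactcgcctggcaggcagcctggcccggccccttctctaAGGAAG
Emcn has ETS forms starting 174 and 93 bases before the start and the only SOX form among these 5. Robo4 has 1 ETS form at 49 bases before the start and Tie1 1 at 219. Ace, higher after a final period in gel, has 2, at 218 and 88 bases, and Eng, lower there, has 2 as well, at 52 and 6. These starts are those of RefSeq and can differ from the starts of the gene annotation used for gene positions elsewhere in the text. The windows of Emcn, Robo4, Tie1 and Ace thus end inside the annotated spans of their genes. Tie1 is annotated on the minus strand up to 118490061, so that most of its window lies inside the gene. The windows of Cldn5, Kdr, Car4, Ednrb, Flt4, Clec14a and Prox1 hold neither form, nor does a further window of Ace that is not printed.

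Genes of junctions and of the endothelial surface were highest with both periods in gel. All 9 were higher in 3D-3D than in 2D-2D (median 3.50), all 9 were lower in 2D-3D than in 3D-3D (median -2.12) and all 9 were lower in 3D-2D than in 3D-3D (median -3.31). Over all genes the shares were 38.6%, 15% and 37.7%, in that order. Fewer of them were higher in 2D-3D than in 2D-2D: 6 were higher, Egfl7 was lower, and Robo4 and Esam were not called (median 1.51). Of all genes 36.5% were higher and 34.7% lower there. Pecam1 encodes PECAM-1 (CD31), an adhesion molecule of cell borders (chromosome 11, 106654217 to 106750628, GRCm38.p6). It stood at 3.85, 4.29, 4.47 and 4.88 CPM in 2D-3D, at 1.90, 1.79, 1.52 and 1.36 in 3D-2D, at 15, 16.5, 25.4 and 19.9 in 3D-3D, at 0.812, 0.914, 1.5 and 0.849 in 2D-2D and at 407, 370, 405 and 398 in Sort_Fib. The 3D-3D libraries lay above all other cultures and the 2D-3D libraries above those that ended on plates, while 3D-2D and 2D-2D overlapped. The change was 4.21 ± 0.21 between 3D-3D and 2D-2D (adjusted p = 4.48e-13) and 2.10 ± 0.22 between 2D-3D and 2D-2D (adjusted p = 4.12e-08). Between 3D-2D and 2D-2D it was 0.68 ± 0.25 and was not called (adjusted p = 0.059), although without replicate 3 of 2D-2D it was 0.92 (adjusted p = 0.0169).

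Cdh5, which encodes the VE-cadherin of adherens junctions, gave the same order. Its levels were 4.38, 6.01, 5.62 and 3.72 CPM in 2D-3D, 1.85, 2.88, 2.45 and 1.68 in 3D-2D, 16.6, 22.3, 16.3 and 23.9 in 3D-3D, 1.33, 2.11, 1.5 and 1.98 in 2D-2D and 603 to 631 in Sort_Fib. All 3D-3D libraries exceeded all 2D-3D libraries, and these exceeded all libraries that ended on plates, between which the levels overlapped. Cldn5, the claudin of endothelial tight junctions, reached 5.79, 4.86, 5.22 and 9.08 CPM in 3D-3D and 0.348, 0.0571, 0.231 and 0 CPM in 2D-2D. Its change between these groups was 5.24 ± 0.45, and in 2D-3D it was lower than in 3D-3D by a log2 change of -2.86 ± 0.34. Emcn encodes endomucin, a sialomucin of capillaries and veins. It stood at 2.19, 3.12, 3.17 and 2.37 CPM in 2D-3D, 2.11, 1.09, 1.31 and 1.09 in 3D-2D, 12, 16.4, 16 and 19.6 in 3D-3D, 1.10, 0.742, 1.16 and 0.622 in 2D-2D and 65.9 to 77.6 in Sort_Fib. Of the 9 junction and surface genes, Emcn lay nearest to Sort_Fib in 3D-3D, at -2.20 ± 0.14, and Clec14a, a lectin-like surface protein of vessel sprouts, lay furthest, at -6.83 ± 0.21.

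Robo4, the endothelial roundabout receptor, reached its 3D-3D level in no other culture. It stood at 0.761, 0.373, 0.384 and 0.697 CPM in 2D-3D, at 0.106, 0.707, 0.218 and 0.434 in 3D-2D, at 2.85, 4.19, 3.42 and 4.24 in 3D-3D and at 0.290, 0.286, 0.405 and 0.453 in 2D-2D. The 3D-3D libraries lay above all others of the cultures, and the other 3 groups overlapped. Between 2D-3D and 2D-2D the change was 0.62 ± 0.46 and was not called. Esam, an adhesion molecule of tight junctions, behaved likewise: 5.98 to 8.75 CPM in 3D-3D against 0.339 to 0.926 in 2D-2D (3.44 ± 0.41), with 0.559 to 2.40 in 2D-3D (0.89 ± 0.45 over 2D-2D, not called; 1.12 and 1.10 and called without replicate 2 or 4 of 2D-3D). Robo4 and Esam lie close together on chromosome 9, at 37401897 to 37415115 and 37528078 to 37538319.

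Egfl7, a secreted protein of the vessel wall whose gene hosts miR-126, moved in opposite directions by history. It stood at 3.43, 3.96, 4.56 and 3.12 CPM in 2D-3D, at 4.55, 5.54, 4.79 and 4.72 in 3D-2D, at 12, 11.5, 12.5 and 15.1 in 3D-3D and at 5.39, 6.22, 5.44 and 5.15 in 2D-2D. It was higher in 3D-3D than in 2D-2D (1.19 ± 0.14) but lower in 2D-3D than in 2D-2D (-0.56 ± 0.15), with no overlap in either case; scaled by library size alone the second change was -0.28 and not called. Icam2, an adhesion molecule for leukocytes, was higher than in 2D-2D (1.66 to 2.21 CPM) in all 3 groups with a gel period: 3.14 to 5.17 CPM in 2D-3D, 3.80 to 4.49 in 3D-2D and 5.04 to 7.76 in 3D-3D. Clec14a stood at 0.0952, 0.606, 0.336 and 0 CPM in 2D-3D, 0.0529, 0.109, 0 and 0.163 in 3D-2D, 1.03, 0.900, 0.879 and 1.43 in 3D-3D and 0.0580, 0, 0.0578 and 0 in 2D-2D, against 114 to 132 in Sort_Fib. The 3D-3D libraries lay above all other cultures, with 37 times the level of 2D-2D, which held 2 counts in all (exact 95% counting interval 9.94 to 310). In 2D-3D it was lower than in 3D-3D (-1.99 ± 0.60), and not without replicate 1 of 2D-3D (-1.72, adjusted p = 0.0546).

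Growth factor receptors and their partners had no common direction. Of 7 genes, 3 were higher and 3 lower in 3D-3D than in 2D-2D, with a median of -0.12, and these shares lie near those over all genes (38.6% higher, 34.9% lower). Tie1, an orphan receptor that works with the angiopoietin receptor, stood at 0.952, 1.86, 1.54 and 1.44 CPM in 2D-3D, 0.476, 0.326, 0.707 and 0.488 in 3D-2D, 4.67, 5.45, 4.69 and 6.08 in 3D-3D, 0.406, 0.286, 0.174 and 0.509 in 2D-2D and 151 to 162 in Sort_Fib. It was higher in 3D-3D than in 2D-2D by 3.89 ± 0.32 and in 2D-3D by 2.05 ± 0.34, without overlap. Tek, the angiopoietin receptor itself, stood at 0.887 to 1.67 CPM in 3D-3D and 0.116 to 0.347 in 2D-2D (2.59 ± 0.52). In 2D-3D its change over 2D-2D was 1.59 ± 0.55 and called, but 0.97 and not called (adjusted p = 0.112) without replicate 2, whose 1.35 CPM stood above the 0.372 to 0.528 CPM of the other libraries. Kdr, the main VEGF receptor of blood vessels, reached 2.15 to 4.05 CPM in 3D-3D against 1.2 to 2.04 in 2D-2D (0.96 ± 0.27), and 201 to 223 CPM in Sort_Fib.

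Flt4, the receptor for VEGF-C and VEGF-D, Eng and Ptprb were higher on plates. Flt4 stood at 5.43, 3.96, 3.84 and 5.11 CPM in 2D-3D, 11.3, 15.4, 16.3 and 18.0 in 3D-2D, 6.12, 7.65, 8.05 and 6.27 in 3D-3D, 17.9, 19.9, 19.0 and 19.2 in 2D-2D and 62.8 to 65.5 in Sort_Fib. It was lower in 2D-3D and in 3D-3D than in 2D-2D (-2.05 ± 0.15 and -1.45 ± 0.14) and higher in 3D-2D than in 3D-3D (1.12 ± 0.14), and the libraries that ended in gel all lay below those that ended on plates. Eng, the TGF-beta and BMP co-receptor endoglin, was the most abundant receptor of the 7 in every group per kilobase of exon. It stood at 96.2, 93.0, 78.2 and 86.1 CPM in 2D-3D, 133, 174, 170 and 166 in 3D-2D, 94.9, 92.4, 91.8 and 94.9 in 3D-3D, 164, 176, 194 and 177 in 2D-2D and 400 to 423 in Sort_Fib. Its change was -1.01 ± 0.08 between 2D-3D and 2D-2D and -0.94 ± 0.08 between 3D-3D and 2D-2D, and groups that ended on the same substrate were not called different. In 2D-2D Eng lay nearest to Sort_Fib of the genes that were lower there, at -1.2 ± 0.08.

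Ptprb, the VE-PTP phosphatase that restrains the angiopoietin receptor and VE-cadherin, had the lowest level of the 3 in the cultures per kilobase of exon. It stood at 1.43, 1.12, 0.673 and 0.790 CPM in 2D-3D, 2.17, 2.23, 2.12 and 2.77 in 3D-2D, 0.654, 1.71, 0.927 and 1.06 in 3D-3D and 4.18, 4.28, 5.90 and 5.21 in 2D-2D. All libraries with a gel period lay below all 2D-2D libraries, and those of 3D-2D lay between 2D-2D and the groups that ended in gel. In 3D-2D it was lower than in 2D-2D by a log2 change of -1.08 ± 0.27, the only such gene of the list. Flt1, the VEGF receptor that also acts as a decoy, was not called in any comparison between 2 cultures, at 11.6 to 17.6 CPM in 2D-3D, 10.4 to 14.2 in 3D-2D, 12.4 to 24.3 in 3D-3D and 15.4 to 21.5 in 2D-2D. Its highest 3D-3D value came from replicate 3, without which Flt1 was lower in 3D-3D than in 2D-2D (-0.36, adjusted p = 0.0457). It was also called lower in 2D-3D than in 2D-2D without replicate 1 of 2D-3D (-0.57) or of 2D-2D (-0.47), and in 3D-2D than in 3D-3D without replicates 1 or 2 of 3D-3D (-0.47 and -0.46).

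Of the transcription factors, Erg, Sox17 and Sox18 were higher in 3D-3D than in 2D-2D and Prox1 was not called. Erg maintains endothelial gene expression. It stood at 2.09, 2.70, 3.17 and 2.84 CPM in 2D-3D, 0.529, 0.272, 0.816 and 0.109 in 3D-2D, 3.22, 3.78, 4.39 and 4.61 in 3D-3D, 0.174, 0.0571, 0.231 and 0.453 in 2D-2D and 30.2 to 32.7 in Sort_Fib. Libraries that ended in gel lay above all that ended on plates, and the change was 3.52 ± 0.45 in 2D-3D and 4.08 ± 0.44 in 3D-3D over 2D-2D. Between 2D-3D and 3D-3D it was -0.55 ± 0.32 and not called, although the 2 groups did not overlap. Sox18, a factor of developing blood and lymph vessels, stood at 2.43, 3.36, 3.70 and 3.39 CPM in 2D-3D, 0.370, 0.707, 0.544 and 0.488 in 3D-2D, 7.94, 11, 10.7 and 13.8 in 3D-3D and 0.754, 0.742, 0.868 and 0.509 in 2D-2D. Its 3D-3D libraries lay above those of 2D-3D (-1.74 ± 0.20 for 2D-3D over 3D-3D), and 3D-2D and 2D-2D overlapped.

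Sox17, a factor of arterial endothelium, differed from Erg in the group moved into gel. It stood at 0.238, 0.140, 0.192 and 0 CPM in 2D-3D, 0.264, 0.163, 0.381 and 0.0543 in 3D-2D, 2.90, 2.07, 2.10 and 3.09 in 3D-3D, 0.0580, 0, 0 and 0.113 in 2D-2D and 30.0 to 40.5 in Sort_Fib. Its depth-scaled level in 3D-3D was 59 times that of 2D-2D (exact 95% counting interval 19.9 to 288), which held 3 counts in all, whereas 2D-3D stood below 3D-3D at -4.09 ± 0.54. Of its annotated exon bases 16.8% are shared with a transcript on the other strand, from which its reads cannot be told apart without strand information. Prox1, the factor that sets lymphatic identity, ranged from 0.272 to 1.21 CPM over the cultured libraries and from 5.54 to 8.77 CPM in Sort_Fib.

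**Figure D4:**
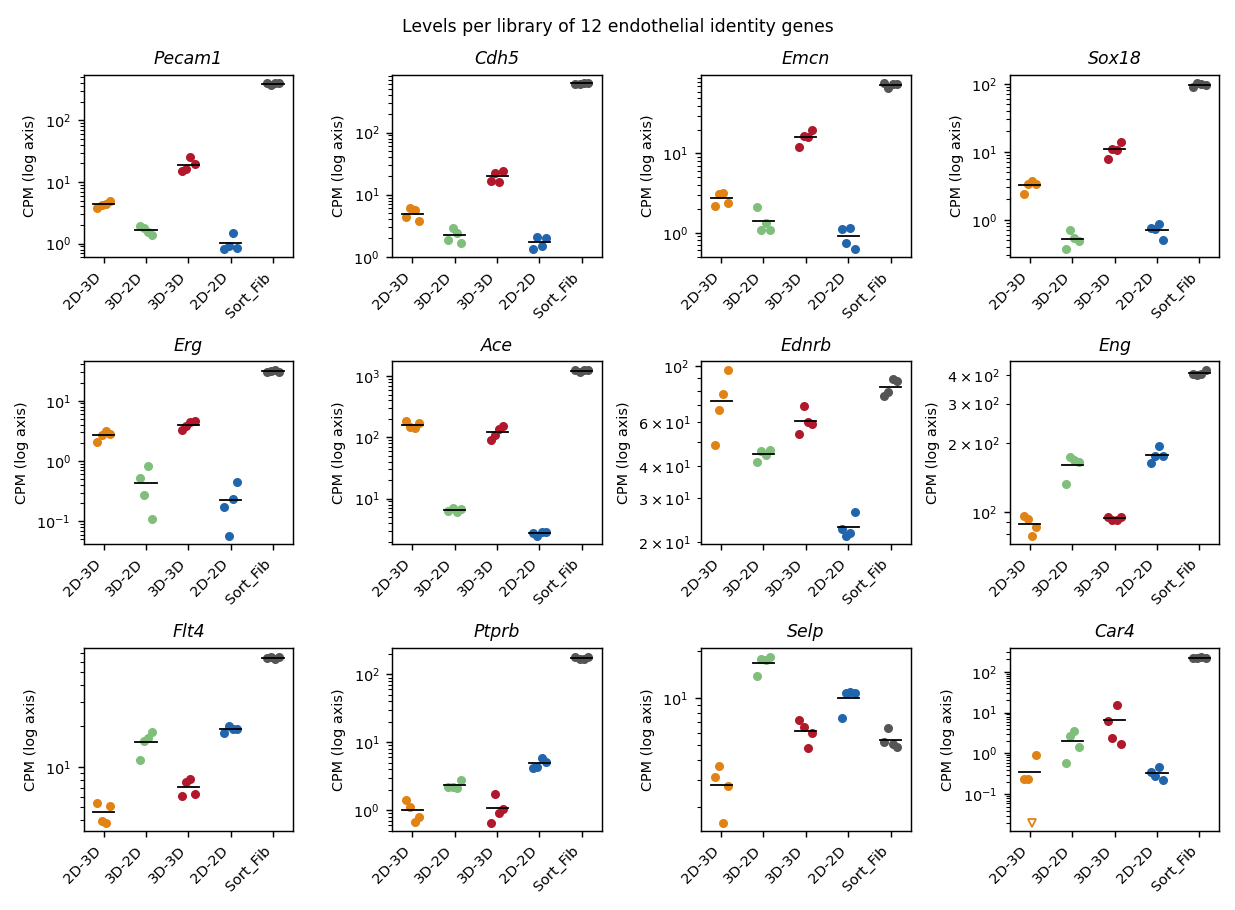
CPM on log axes of 12 of the genes in each library (points) with group means (lines); the open triangle marks a library of Car4 at 0. In Pecam1, Cdh5, Emcn and Sox18 the 3D-3D points lie above all other cultures, in Erg and Ace the 2 groups that ended in gel lie together, and in Eng and Flt4 both lie below the groups that ended on plates.

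Genes of capillary transport and vessel tone were the other group that rose as a whole. All 9 were higher in 3D-3D than in 2D-2D (median 3.18), all 9 were lower in 3D-2D than in 3D-3D (median -2.10), and 6 of the 9 were still higher in 3D-2D than in 2D-2D. Over all genes the shares were 38.6%, 37.7% and 9.74%, in that order. Ace encodes the enzyme that makes angiotensin II (chromosome 11, 105967945 to 105989964). It stood at 188, 146, 142 and 169 CPM in 2D-3D, 6.29, 7.07, 5.99 and 6.73 in 3D-2D, 89.9, 111, 137 and 156 in 3D-3D, 2.73, 2.46, 2.83 and 2.83 in 2D-2D and 1150 to 1270 in Sort_Fib. Per kilobase of exon it was the most abundant of the 35 genes in 2D-3D (30.5 CPM per kb), and in 3D-3D it stood beside Eng (23.4 and 23.1 CPM per kb). All libraries that ended in gel lay above all that ended on plates. The change of 2D-3D over 3D-3D was 0.40 ± 0.12 with overlapping libraries, and it was no longer called without replicate 1 of 2D-3D (0.31) or without replicates 1 or 2 of 3D-3D (0.27 and 0.35). In 3D-2D Ace was higher than in 2D-2D by 1.25 ± 0.19, with every 3D-2D library above every 2D-2D library.

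Ednrb, the endothelin receptor of type B, came close to the uncultured level in 2D-3D. It stood at 48.7, 67.1, 77.6 and 96.8 CPM in 2D-3D, 41.5, 45.9, 44.6 and 46.6 in 3D-2D, 53.9, 69.8, 59.9 and 58.8 in 3D-3D, 22.6, 21.2, 21.8 and 26.5 in 2D-2D and 75.9, 78.9, 89.3 and 87.1 in Sort_Fib. All groups with a gel period lay above 2D-2D without overlap (1.65 ± 0.15 in 2D-3D, 0.94 ± 0.15 in 3D-2D and 1.38 ± 0.15 in 3D-3D). Relative to Sort_Fib it was -0.19 ± 0.13 in 2D-3D, which was not called, but -0.36 and called (adjusted p = 0.00858) without replicate 4 of 2D-3D. In 3D-3D it was lower than in Sort_Fib, by a log2 change of -0.45 ± 0.13 and without overlap. Aqp1, the water channel of lung capillaries, stood at 20.6, 22.4, 20.1 and 16.5 CPM in 2D-3D, 26, 29.9, 28.6 and 28.7 in 3D-2D, 42.4, 53.8, 44.4 and 57.4 in 3D-3D, 10.7, 11, 10.9 and 10.9 in 2D-2D and 316 to 352 in Sort_Fib. No 2 of these groups overlapped, with 3D-3D highest among the cultures, then 3D-2D, then 2D-3D. It was higher in 3D-2D than in 2D-2D by 1.37 ± 0.11 (adjusted p = 2.26e-08), the smallest adjusted p of the list in that comparison.

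Plvap, the protein of the diaphragms of fenestrae and caveolae, stood at 13.2, 12.1, 13.7 and 9.90 CPM in 2D-3D, 4.60, 5.60, 4.30 and 5.10 in 3D-2D, 26.3, 23.4, 33.4 and 28.6 in 3D-3D, 3.48, 2.74, 2.95 and 3.00 in 2D-2D and 355 to 385 in Sort_Fib. The 4 culture groups did not overlap, and each group with a gel period was called higher than 2D-2D (2.00 ± 0.15, 0.67 ± 0.16 and 3.18 ± 0.15 in 2D-3D, 3D-2D and 3D-3D). Gpihbp1, which carries lipoprotein lipase to the capillary surface, had the largest fitted change of the 33 genes between 3D-3D and 2D-2D, at 6.52 ± 0.56. It held only 4 counts over the 2D-2D libraries, so that the size of changes over that group is uncertain. It stood at 0.428, 0.233, 0.336 and 0.325 CPM in 2D-3D, 0.106, 0.0543, 0.272 and 0.217 in 3D-2D, 5.09, 3.56, 5.32 and 9.58 in 3D-3D, 0.174, 0, 0 and 0.0566 in 2D-2D and 54.6 to 65.3 in Sort_Fib. The 3D-3D libraries stood clear of all other cultures, and 2D-3D was higher than 2D-2D by 2.40 ± 0.79.

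The adrenomedullin receptor is built from Calcrl and its partner Ramp2. Calcrl stood at 15.9 to 22.6 CPM in 2D-3D, 4.78 to 7.40 in 3D-2D, 21.1 to 26.5 in 3D-3D and 3.94 to 4.87 in 2D-2D, and followed the last substrate (2.08 ± 0.15 and 2.43 ± 0.15 in 2D-3D and 3D-3D over 2D-2D). Ramp2 changed less, at 6.47 to 7.60 CPM in 2D-3D, 5.92 to 6.84 in 3D-2D, 11.2 to 14.3 in 3D-3D and 3.77 to 5.38 in 2D-2D (0.54 ± 0.13 and 1.41 ± 0.13 in 2D-3D and 3D-3D over 2D-2D). In 2D-3D Ramp2 was lower than in 3D-3D (-0.87 ± 0.13), and the change of Calcrl was -0.35 ± 0.13 (adjusted p = 0.0574), with a call without replicate 4 of 2D-3D (-0.44) or replicate 1 of 3D-3D (-0.41). The difference between these 2 partners was not tested. The call of Ramp2 between 3D-2D and 2D-2D (0.39 ± 0.14, adjusted p = 0.048) was lost without replicates 1, 2 or 4 of 2D-2D or 2, 3 or 4 of 3D-2D (adjusted p up to 0.179). Of the exon bases of Ramp2 33.4% are shared with Vps25 on the same strand. Nos3, the endothelial nitric oxide synthase, stood at 0.999 to 2.35 CPM in 2D-3D, 0 to 0.598 in 3D-2D, 3.04 to 6.86 in 3D-3D and 0.231 to 0.742 in 2D-2D (3.30 ± 0.50 for 3D-3D over 2D-2D), and 25.2% of its exon bases are shared with an antisense transcript.

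Car4, a carbonic anhydrase of lung capillaries that marks a specialised capillary cell type, varied widely between replicates. It stood at 0.238, 0.233, 0 and 0.930 CPM in 2D-3D, 0.581, 2.61, 3.48 and 1.47 in 3D-2D, 6.30, 2.34, 15.6 and 1.75 in 3D-3D, 0.348, 0.286, 0.463 and 0.226 in 2D-2D and 211 to 235 in Sort_Fib. Libraries whose cells had started in gel lay above those of 2D-2D, and 2D-3D was not called different from 2D-2D (0.09 ± 0.99). The change was 4.25 ± 0.76 between 3D-3D and 2D-2D. Between 3D-2D and 3D-3D it was -1.67 ± 0.60 with overlap, and it was not called without replicate 3 of 3D-3D (-0.77, adjusted p = 0.215) or without replicates 1 or 4 of 3D-2D (-1.30 and -1.53). The call of 3D-2D over 2D-2D (2.59 ± 0.81) was lost without replicates 2 or 3 of 3D-2D or 1, 2 or 4 of 2D-2D (adjusted p up to 0.0884).

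Selp, Sele and Vwf, of the storage granule and the capture of leukocytes, had no common direction. Selp encodes P-selectin. It stood at 3.14, 3.68, 1.59 and 2.74 CPM in 2D-3D, 13.8, 17.7, 17.5 and 18.4 in 3D-2D, 7.28, 6.53, 4.78 and 5.99 in 3D-3D, 7.48, 10.7, 11 and 10.7 in 2D-2D and 5.23, 6.41, 5.09 and 4.84 in Sort_Fib. It was the only gene of the 35 called higher in a culture than in Sort_Fib, by 1.64 ± 0.18 in 3D-2D and 0.88 ± 0.19 in 2D-2D, and it was lower in 2D-3D (-0.95 ± 0.20). Sele, the E-selectin gene, lies close by, at 164048234 to 164057677 of chromosome 1 and Selp at 164115264 to 164150026. Sele stayed below 1 CPM in the cultures, at 0.488 to 0.762 CPM in 3D-2D against 0.0571 to 0.283 in 2D-2D (1.66 ± 0.49), a call lost without replicate 2 of 2D-2D (1.36) or replicate 3 of 3D-2D (1.53). It was also higher in 3D-3D than in 2D-2D (1.38 ± 0.49), and not without replicate 2 of 2D-2D (1.08, adjusted p = 0.0628).

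Vwf, the clotting factor of the endothelial storage granule, stood at 6.81, 6.81, 3.22 and 9.07 CPM in 2D-3D, 2.38 to 3.70 in 3D-2D, 3.88, 3.74, 6.59 and 3.92 in 3D-3D, 3.59 to 4.00 in 2D-2D and 142 to 169 in Sort_Fib. It was not called between 3D-3D and 2D-2D (0.24 ± 0.25). In 2D-3D it was higher than in 2D-2D (0.77 ± 0.25) with overlapping libraries, and not without replicate 4 of 2D-3D (0.56, adjusted p = 0.0537). In 3D-2D it was lower than in 3D-3D (-0.66 ± 0.26), a call lost without replicate 3 of 3D-3D (-0.43) or replicates 1, 3 or 4 of 3D-2D (-0.52, -0.64 and -0.61).

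Of the lymphatic genes, Ccl21a and Mmrn1 were at or near 0 in the cultures. Ccl21a, the chemokine that draws cells into lymph vessels, stood at 304, 299, 342 and 284 CPM in Sort_Fib and had 2 counts in all 16 cultured libraries, both in replicate 1 of 3D-3D. With a floor of 3 counts over a group it was at least 8690-fold lower in 2D-3D, at least 7600-fold lower in 3D-2D and at least 7140-fold lower in 2D-2D than in Sort_Fib, and 13200-fold lower in 3D-3D (exact 95% counting interval 3650 to 109000). Its near copies Ccl21b and Ccl21c share sequence with it, so that the split of reads among them is uncertain. Ccl21b averaged 0.343 CPM in 2D-3D, 0.0811 in 3D-2D, 0.666 in 3D-3D, 0.115 in 2D-2D and 0 in Sort_Fib. Ccl21c averaged 35.9 CPM in Sort_Fib, 0.12 in 3D-3D and 0 in the other cultures. The bounds and the interval of Ccl21a therefore hold only for the reads assigned to it, and the fall of the 3 copies together was smaller. Mmrn1, a multimerin of lymphatic endothelium and platelets, stood at 46.1 to 57.6 CPM in Sort_Fib, at 0 to 0.0544 CPM in every library of 2D-3D, 3D-2D and 3D-3D, and at 0, 0.286, 0.116 and 0.113 CPM in 2D-2D. Relative to Sort_Fib it was 4350-fold lower in 2D-3D (exact 95% counting interval 781 to 172000), 1900-fold lower in 3D-2D (526 to 15700) and 4410-fold lower in 3D-3D (787 to 174000), where each group held 1 or 2 counts, and in 2D-2D the change was -8.57 ± 0.27.

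Lyve1, the hyaluronan receptor of lymphatic endothelium and of some macrophages, was the exception. It stood at 0.904, 1.58, 2.07 and 1.12 CPM in 2D-3D, 2.91, 4.46, 4.24 and 2.71 in 3D-2D, 5.28, 6.08, 1.76 and 4.98 in 3D-3D, 0.986, 0.286, 0.752 and 0.849 in 2D-2D and 113 to 117 in Sort_Fib. Cultures that had started in gel were higher than 2D-2D wherever they ended, by 2.30 ± 0.40 in 3D-2D and 2.64 ± 0.39 in 3D-3D. The level in 3D-2D was not called different from 3D-3D (-0.34 ± 0.33). The call of 2D-3D over 2D-2D (0.98 ± 0.42, adjusted p = 0.0436) was lost without replicates 2 or 3 of 2D-3D or 2, 3 or 4 of 2D-2D (adjusted p up to 0.149). Summed over the 3 lymphatic genes, Sort_Fib held 454 to 506 CPM and no cultured library more than 6.12.

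The design also asks whether the effect of the second substrate depends on the first. The interaction is the log2 difference between 3D-3D and 3D-2D less the log2 difference between 2D-3D and 2D-2D, so that a positive value means a larger gain in gel after a first period in gel. It was called for 13 of 33 genes, 11 positive and 2 negative, where 19.4% of all genes were called (10.3% positive, 9.1% negative), with a median of 0.77 beside 0.03 over all genes tested. Of the 9 junction and surface genes 6 were positive: Robo4 (2.69 ± 0.62), Esam (2.33 ± 0.61), Egfl7 (1.94 ± 0.20), Emcn (1.93 ± 0.36), Cdh5 (1.65 ± 0.31) and Pecam1 (1.44 ± 0.31). Sox18 was positive as well (2.20 ± 0.37), and so was Flt4 (0.93 ± 0.21), whose loss in gel was smaller after a first period in gel. Ace (-1.65 ± 0.23) and Ednrb (-1.21 ± 0.20) were negative, the gain in gel being larger after plates.

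The calls of Kdr (1.11 ± 0.39, adjusted p = 0.0497), Flt1 (0.77 ± 0.26, adjusted p = 0.0455) and Ptprb (1.2 ± 0.41, adjusted p = 0.0423) lay close to the threshold. Each was lost without some single libraries, 12 of the 16 for Kdr and 11 of the 16 for Flt1 and for Ptprb (adjusted p up to 0.13), and they were also lost with the replicate number as a block (adjusted p = 0.0621, 0.0673 and 0.066). Without replicate 3 of 3D-3D, 9 genes were positive and 2 negative. For Calcrl, Aqp1 and Erg the interaction was 0.01 ± 0.21, -0.06 ± 0.15 and -0.33 ± 0.64 and was not called.

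**Figure D5:**
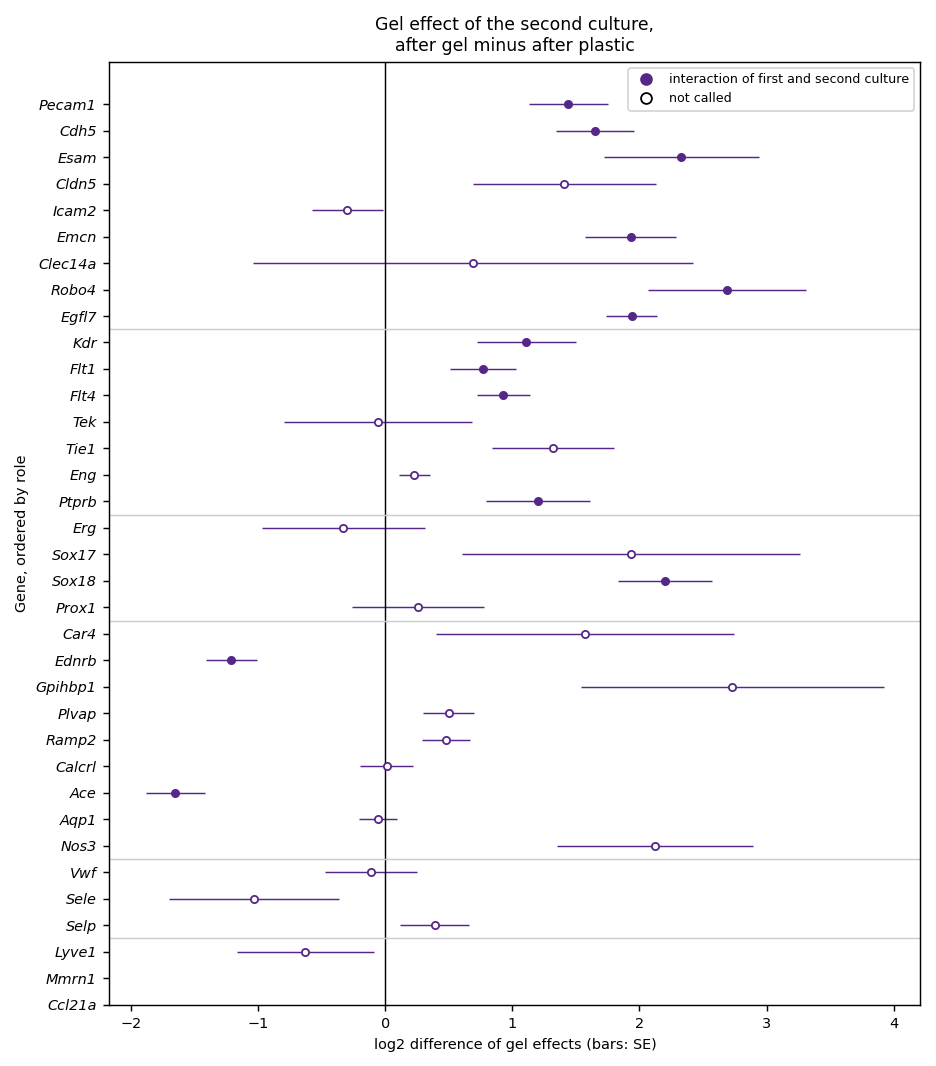
Interaction of the first and the second substrate for each gene, in log2 units with bars of 1 SE and open points where it was not called. Robo4, Esam and Sox18 lie at 2.20 or more and Ace and Ednrb at -1.65 and -1.21; Mmrn1 and Ccl21a were not tested among the cultures.

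A further list of 51 endothelial genes, 50 of them with values, had smaller median changes. Of 45 tested, 25 were higher and 15 lower in 3D-3D than in 2D-2D (median 0.61), beside 38.6% and 34.9% of all genes. In 2D-3D 20 were higher and 14 lower than in 2D-2D (median 0.29), near the 36.5% and 34.7% of all genes. Relative to 3D-3D, 24 were lower and 10 higher in 2D-3D (median -0.61), beside 15% and 12.7% of all genes. The largest changes between 3D-3D and 2D-2D were those of Adgrl4, an adhesion receptor of endothelium, at 3.86 CPM in 3D-3D against 0.0286 in 2D-2D (134 times, exact 95% counting interval 36.9 to 1110), Tmem100, a membrane protein of arterial endothelium and lung (6.77 CPM in 3D-3D against 0.101 in 2D-2D, 5.98 ± 0.53), the apelin receptor Aplnr (3.56 against 0.0722 CPM, 5.51 ± 0.63) and the arterial connexin gene Gja4 (6.95 against 0.272 CPM, 4.62 ± 0.41). Relative to Sort_Fib, 42 of 49 tested were lower and 6 higher in 3D-3D (median -3.17), beside 39.3% and 38.5% of all genes. In 2D-2D 42 were lower and 3 higher (median -3.21), beside 46.1% and 38.5% of all genes. Unlike the 35 genes, with -3.82 and -7.01, the 2 medians of this list lay close together. This difference between the lists was not tested. Reln, a secreted protein of lymphatic endothelium, and Bmp6 and Sema3g, signals made by endothelium, were among the furthest below Sort_Fib in 3D-3D, at -7.80 ± 0.43, -7.00 ± 0.22 and -6.90 ± 0.18.

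Of the ligands of these receptors, 7 of 14 tested were higher and 5 lower in 3D-3D than in 2D-2D (median 0.13), beside 38.6% higher and 34.9% lower over all genes. Agt, the precursor of the substrate of Ace, averaged 21.8 CPM in 3D-3D against 0.114 in 2D-2D (7.48 ± 0.33), and Calcb, a ligand of receptors built on Calcrl, 3.84 CPM in 3D-3D against 0.0718 in 2D-2D (5.61 ± 0.58). Vegfd, a ligand of Flt4, averaged 6.44 CPM in 3D-3D against 109 in 2D-2D (-4.09 ± 0.29), and Edn1, an endothelin bound by Ednrb, 4.67 against 23.7 CPM (-2.35 ± 0.16). Vegfa, the main ligand of Kdr and Flt1, which was named after its values were seen, averaged 407 CPM in 3D-3D libraries against 204 CPM for 2D-2D (0.98 ± 0.13). Adm, the adrenomedullin gene, was likewise named after its values were seen and lay opposite to Calcb and Calcrl. It averaged 63.3 CPM in 2D-3D, 292 in 3D-2D, 75.5 in 3D-3D and 347 in 2D-2D.

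Markers of other cells also differed between the groups, and their lists did not share 1 order. Leukocyte markers (10 genes, Ptprc, Cd79a and S100a9 the most abundant by mean over the 20 libraries, S100a9 through Sort_Fib) summed to 93.8 ± 13.9 CPM in 2D-3D, 39.1 ± 4.49 in 3D-2D, 130 ± 23.2 in 3D-3D, 23.6 ± 2.49 in 2D-2D and 1210 ± 44.7 in Sort_Fib (mean ± SD, n = 4, here and for the lists that follow), and the T cell genes Cd3e and Cd3g and the B cell gene Ms4a1 were at 0 in 2D-2D. Of 7 tested, 7 were higher in 3D-3D than in 2D-2D. The share over all genes was 38.6%, here and for the lists that follow. Epithelial markers (12 genes, Scgb1a1, Sftpc and Sftpb the most abundant by mean over the 20 libraries, and Krt8 and Krt18 in 3D-3D) summed to 24.2 ± 4.71 CPM in 2D-3D, 106 ± 37.8 in 3D-2D, 378 ± 136 in 3D-3D, 14.8 ± 2.40 in 2D-2D and 2170 ± 163 in Sort_Fib, with 11 of 11 tested higher in 3D-3D than in 2D-2D and Krt15 at 0 in 2D-2D. The leukocyte sums thus had the order of group means of Pecam1, and the epithelial sums had it except that 3D-2D lay above 2D-3D. Ptprc carried most of the leukocyte sum in 2D-3D, averaging 86.5 CPM there, 28.5 in 3D-2D, 62.4 in 3D-3D and 19.6 in 2D-2D. Without Ptprc the leukocyte sum of 2D-3D would lie below that of 3D-2D. Of 7 leukocyte genes tested, 6 were lower and 1 higher in 2D-3D than in 3D-3D, beside 15% and 12.7% of all genes.

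Macrophage markers (13 genes, Lyz2, C1qb and Cd68 the most abundant by mean over the 20 libraries) summed to 21500 ± 1890 CPM in 2D-3D, 13000 ± 709 in 3D-2D, 12700 ± 1490 in 3D-3D, 8880 ± 964 in 2D-2D and 5340 ± 178 in Sort_Fib, with 11 of 13 higher in 3D-3D than in 2D-2D. Of the platelet list, Pf4 and Ppbp, which macrophages can also express, carried the sum of 1180 ± 103 CPM in 2D-3D, 1430 ± 101 in 3D-2D, 2020 ± 119 in 3D-3D, 453 ± 9.23 in 2D-2D and 13.7 ± 1.52 in Sort_Fib, while the platelet receptor gene Gp1ba was at 0 in all cultures. Pericyte markers summed to 346 ± 28.0 CPM in 2D-3D, 212 ± 23.9 in 3D-2D, 412 ± 31.6 in 3D-3D, 361 ± 26.6 in 2D-2D and 342 ± 5.12 in Sort_Fib. Of 9 tested, 6 were higher and 1 lower in 3D-3D than in 2D-2D (median 1.08), beside 38.6% and 34.9% of all genes. Fibroblast markers summed to 14600 ± 1240 CPM in 2D-3D, 7870 ± 1020 in 3D-2D, 10800 ± 1160 in 3D-3D, 15900 ± 1750 in 2D-2D and 13000 ± 433 in Sort_Fib. Although this sum was lower in 3D-3D than in 2D-2D, 7 of 10 fibroblast genes were higher there and 3 lower (median 1.21). The abundant Col1a1 weighed on the sum, with 2370 CPM in 3D-3D and 9750 in 2D-2D. Mesothelial markers summed to 14.2 ± 1.77, 14.9 ± 2.95, 38.6 ± 10.9, 15.3 ± 1.63 and 130 ± 4.18 CPM in the same 5 groups in that order, and red blood cell markers reached 256 ± 13.2 CPM in Sort_Fib and at most 0.628 in a cultured library. Macrophage sums were highest in 2D-3D, where the means of Ace, Ednrb, Vwf and Prox1 were also highest among the cultures. In 3D-2D and 3D-3D the macrophage sums were 13000 and 12700 CPM, while Ace averaged 6.52 and 123 CPM and Ednrb 44.6 and 60.6 CPM. The part of other cells in the levels of the endothelial genes was not tested.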

How the data were processed

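Bulk RNA-seq libraries of mouse lung cells, 5 groups of 4, were analysed from 1 table of estimated counts per gene. Per the labels' protocols reads were aligned with HISAT, and the submitters' processing notes also name Bowtie2 and the build GRCm38.p6; versions, the counting program and strand: not given in the sources used here. Expected counts were deposited, of which 5.98% were not whole (tolerance 1e-06), and these were rounded; 5 group-average columns were not used. Of 67228 rows 18012 held values. No 2 of the 30 pairs of replicates were identical.

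Genes were tested with edgeR 4.0.16 (R 4.3.3): filterByExpr, TMM, the quasi-likelihood F test and Benjamini-Hochberg adjustment over all genes tested. Comparisons among cultures used the 16 cultured libraries (13704 genes, biological coefficient of variation 0.122), those with Sort_Fib all 20 (14715 genes, 0.112). SE is the unshrunken log2 fold change over the root of F. Where a group held 3 counts or fewer, a ratio of summed counts with an exact 95% interval is given in place of the fitted change, or, at 0, a bound at a floor of 3 counts over the group. Intervals cover counting error only. The 35 genes and the other lists were chosen with earlier results of these data known. Genes given in every library were called without overlap of the 2 groups in at least 1 comparison and reached 1 CPM in a group, most of them in full and the rest as ranges; of other lists up to 4 with the largest change, and of other cell types the 3 most abundant, are named. Equal replicate numbers are not known to pair libraries, and no pairing was used in the main fits. Over 40 same-numbered pairs the correlation of deviations from group means was -0.082 to 0.119. Such values cannot exclude shared animals whose effect was small. Alternatives were RLE size factors, library size alone, DESeq2 1.42.0, limma-voom (limma 3.58.1), no filter, at least 1 CPM in 4 libraries, a replicate block, a fit of all 20 libraries or of the compared groups alone, and leaving out each library. The level of 1 marker gene is not reported here. The tests were tried on simulated counts first.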

Additional observations from a re-analysis of the deposited data

Results flagged for a closer look

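In 9 of the 172 sets of 4 libraries examined (1 gene in 1 group), a single library stood apart from the other 3 by the gap to its nearest neighbour; chance alone gives about 1 in 20 sets. These were Flt1 in replicate 1 of 2D-3D (17.6 CPM), Tek in replicate 2 of 2D-3D (1.35 CPM), Mmrn1 in replicate 4 of 2D-3D (0.0465 CPM), Ptprb in replicate 4 of 3D-2D (2.77 CPM), Vwf in replicate 3 of 3D-3D (6.59 CPM), Mmrn1 in replicate 2 of 3D-3D (0.045 CPM), Ccl21a in replicate 1 of 3D-3D (0.0934 CPM), Pecam1 in replicate 3 of 2D-2D (1.5 CPM) and Selp in replicate 1 of 2D-2D (7.48 CPM, the 1 value that stood below its group). The values of Mmrn1 and Ccl21a rest on 1 and 2 counts.

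The effect of the second substrate differed between the first substrates for 13 genes by the interaction term of edgeR's quasi-likelihood test. In log2 units the difference was 1.44 for Pecam1, 1.65 for Cdh5, 2.33 for Esam, 1.93 for Emcn, 2.69 for Robo4, 1.94 for Egfl7, 1.11 for Kdr, 0.77 for Flt1, 0.93 for Flt4, 1.2 for Ptprb, 2.20 for Sox18, -1.21 for Ednrb and -1.65 for Ace.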

How the results depend on the processing

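No gene of the list changed sign past the threshold under any alternative run, and the number of the list's genes called in either direction stayed within 1.5 times its value in each comparison; the counts over all genes in 1 direction moved further under library size alone, as given above. Leaving out 1 library at a time, the number of genes called was 29 to 31 for 3D-3D over 2D-2D, 23 to 26 for 2D-3D over 2D-2D, 27 to 30 for 3D-2D over 3D-3D, 21 to 23 for 2D-3D over 3D-3D, 8 to 12 for 3D-2D over 2D-2D and 10 to 14 for the interaction. Relative to Sort_Fib it was 34 to 35 for 2D-3D, 35 throughout for 3D-2D, 34 throughout for 3D-3D and 35 throughout for 2D-2D. Over the other alternatives the interaction count varied most, with 10 genes under limma-voom and under library size alone, 15 under DESeq2 and 16 with all 20 libraries in the fit. With the replicate block it was 10, and the block left 30 genes called for 3D-3D over 2D-2D, 24 for 2D-3D over 2D-2D, 29 for 3D-2D over 3D-3D, 22 for 2D-3D over 3D-3D and 11 for 3D-2D over 2D-2D. Under the block the calls of Kdr in 2D-3D over 3D-3D (adjusted p = 0.0556), Lyve1 in 2D-3D over 2D-2D (0.0659) and Ramp2 in 3D-2D over 2D-2D (0.053) were lost and that of Pecam1 in 3D-2D over 2D-2D was gained (0.0451); the numbers are not known to pair libraries. Scaled by library size alone, 46 of 172 group levels moved by more than 1 SD, and the ratios over all 172 lay between 0.865 and 1.12. Depth limits Clec14a, Sox17, Mmrn1 and Ccl21a, which held 3 counts or fewer in at least 1 culture group, and Gpihbp1, which held 4 counts in 2D-2D.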
